A study of Mus musculus with 10 samples.

Results

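The RGS proteins, the regulators of G-protein signaling, were followed at the transcript level in mouse bone marrow–derived macrophages (BMDMs). The group described here is 9 listed genes, Rgs1, Rgs2, Rgs3, Rgs10, Rgs12, Rgs14, Rgs16, Rgs18 and Rgs19, of the 55573 genes in the table and of 21 genes in it named Rgs with a number. The list was chosen by name and with their levels in these data known, and the fall of Rgs2 after the combined treatment was part of the reason for choosing it. The values of Rgs2 are therefore given as a description, without a test.

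When a G protein–coupled receptor is engaged, the Gα subunit of its heterotrimeric G protein exchanges GDP for GTP and parts from Gβγ, and both partners then act on enzymes such as adenylyl cyclases, phospholipase C β and PI3K γ. RGS proteins bind the active Gα and speed up its hydrolysis of GTP, which ends the signal. In macrophages and other leukocytes they are known for setting how strongly and for how long cells respond to chemokines, lipid mediators, nucleotides and other ligands of such receptors.

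The BMDMs came from wild-type female C57BL/6 mice and were grown with M-CSF in serum-containing medium, which all groups shared. They were treated for 4 hours in 5 groups of 2 libraries each, which received vehicle, polyU (5 μg of a uridine-only ssRNA carried into cells by the lipid DOTAP), PNPi+dG/rG (1 μM of the purine nucleoside phosphorylase inhibitor ulodesine with 5 μM deoxyguanosine and 5 μM guanosine), both together (PNPi+dG/rG+polyU, the combined treatment), or R848, a synthetic TLR7 agonist, at 1 ng/mL. PolyU and guanosine nucleosides are ligands of separate sites on TLR7, and the design asks what each does alone and what they do together. The labels name DOTAP only with polyU and do not say whether vehicle held it. An effect of the lipid therefore cannot be told apart from one of polyU. The labels call the 2 libraries of a group biological replicates, but neither they nor the methods say whether these were separate mice or separate dishes. The p-values rest on the spread between libraries of the same group, pooled over the 5 groups and drawn toward that of other genes. They may not measure the spread between mice. The ages of the mice are not given in the sources used here.

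Levels are CPM, that is, the reads on a gene in every 1000000 reads on genes of its library, and a fold change is a difference of mean log2 values. A gene was called changed when its Benjamini-Hochberg adjusted p-value in limma, over the 11978 genes tested, was under 0.05 and its change was at least 2-fold. A single gene is said to rise or fall when that adjusted p-value was under 0.05, whether or not the change reached 2-fold. All 9 RGS genes passed the filter for testing, which asked for at least 1 CPM in at least 2 libraries. Depth ran from 14128128 to 38392592 reads on genes a library, deepest for PNPi+dG/rG and shallowest for the combined treatment, and 3 reads are worth 0.0781 to 0.212 CPM. CPM are shares of a library, and the median of all tested genes was itself shifted by -0.50 (log2) after R848 and by -0.22 after PNPi+dG/rG+polyU. Values given relative to the median gene come from a fit that set the median tested gene of every library to the same value. In bulk RNA, fewer cells of a type and less RNA per cell cannot be told apart.

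All 8 macrophage markers examined were detected in every group, with a sum of 17410 to 17890 CPM in vehicle, 14434 to 14492 CPM with the combined treatment and 13254 to 13519 CPM after R848. Most of that sum is Lyz2 (10805 and 11067 CPM in vehicle), and 6 of the 8 stood below vehicle with the combined treatment and 6 with R848. Mertk, a receptor for the uptake of dying cells, was called lower with PNPi+dG/rG+polyU (4.51-fold) and with R848 (7.33-fold). The Fc receptor gene Fcgr1 was called lower with R848 (2.09-fold). Adgre1 went the other way, from 1547 and 1629 CPM in vehicle to 2462 and 2441 CPM with the combined treatment and 2047 and 2093 CPM with R848. Fcgr1 also stood above vehicle with the combined treatment. The defining T cell, neutrophil and platelet markers Cd3e, Cd3d, Ly6g, Retnlg, Gp9 and Gp1bb were at 0 in all groups, but other T cell and neutrophil markers moved. The neutrophil list, the sum of which is mostly S100a8 and S100a9, was at 2.75 to 3.48 CPM in vehicle, 7.32 to 7.50 CPM with the combined treatment and 21.1 to 23.4 CPM after R848. S100a8 was called higher with both (2.54-fold) and with R848 (12.4-fold), and S100a9 was called lower with R848, from 21 and 26 reads in the vehicle libraries to 1 and 0. The T cell list, almost all Cd4, was at 6.96 to 8.82 CPM in vehicle and 0.584 to 1.10 CPM after R848, where Cd4 was called lower (9.68-fold). The 4 fibroblast markers Col1a1, Col3a1, Dcn and Pdgfra summed to 61.7 to 69.6 CPM after R848. Their sum was 0.224 to 0.674 CPM in vehicle, 0.563 to 0.779 CPM with the combined treatment and at most 0.856 CPM in any group but R848. They reached 1 CPM only in the R848 libraries and passed the filter through these, so their calls are not used. The part of any of these marker changes in the RGS results was not tested.

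Windows upstream of RefSeq start sites were available for 6 of the 9 genes. The 250 bases before the start site, read 5′ to 3′ on the gene's strand, are shown for 3 of them (RefSeq, GRCm38.p6). Rgs2 is the gene whose levels were part of the choice. Rgs16 is the gene that PNPi+dG/rG raised when polyU was present, and Rgs10 stayed among the most abundant of the family. Capitals mark matches, on either strand, to the motifs named below.

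Rgs2, chr1:144004150-144004399, minus strand: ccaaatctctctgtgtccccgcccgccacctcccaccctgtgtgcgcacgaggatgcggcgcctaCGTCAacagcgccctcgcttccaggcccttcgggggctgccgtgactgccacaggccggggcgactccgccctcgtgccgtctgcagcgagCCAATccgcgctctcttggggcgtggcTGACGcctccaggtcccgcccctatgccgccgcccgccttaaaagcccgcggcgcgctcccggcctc

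Rgs16, chr1:153740103-153740352, plus strand: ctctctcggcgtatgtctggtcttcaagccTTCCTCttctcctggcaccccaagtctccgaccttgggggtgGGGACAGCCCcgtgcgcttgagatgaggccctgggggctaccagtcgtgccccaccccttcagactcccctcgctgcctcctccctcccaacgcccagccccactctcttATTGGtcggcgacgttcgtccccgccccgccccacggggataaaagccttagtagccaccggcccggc

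Rgs10, chr7:128418173-128418422, minus strand: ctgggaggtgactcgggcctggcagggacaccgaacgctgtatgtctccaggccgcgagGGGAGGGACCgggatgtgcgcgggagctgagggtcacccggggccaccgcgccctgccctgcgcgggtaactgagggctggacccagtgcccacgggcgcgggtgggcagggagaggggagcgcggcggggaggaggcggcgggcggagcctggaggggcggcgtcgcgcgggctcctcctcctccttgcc

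The letters searched on both strands were TGACG (the CRE half-site bound by CREB), TGACGTCA (the full CRE, which contains it), TGANTCA (AP-1), the κB consensus reduced to GGGA and CC with any 4 bases between them, the ISRE of IFN-regulated genes reduced to its pair of GAAA blocks with any 2 bases between them, GAGGAA (the core read by PU.1 and other ETS factors), TATAAA (the TATA box), CCAAT (the CCAAT box) and CACGTG (the E-box). The Rgs2 stretch held 2 CRE half-sites facing in opposite directions, starting 185 and 67 bases before the start site, and a CCAAT box 94 bases before it. Among all 32851 windows, which also include 50 bases after the start, 20.8% held at least 1 TGACG and 37.4% at least 1 CCAAT. The Rgs16 stretch held the ETS core 220, the κB letters 178 and a CCAAT box, read on the other strand, 68 bases before the start, and the Rgs10 stretch held the κB letters 191 bases before it. κB letters stood in 20.7% and the ETS core in 28.3% of all windows. Both motifs are common at this length, and a match describes letters, not binding.

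The 9 genes lie on 6 chromosomes, but the 3 that stood lowest against vehicle after R848 are neighbours. By GENCODE M21 (GRCm38), Rgs2 (chr1:143999338-144004161), Rgs1 (chr1:144242296-144249242) and Rgs18 (chr1:144752683-144775435), all on the minus strand, belong to a run of 5 consecutive protein-coding genes over 776 kb that are all RGS genes. The other members of the run, Rgs13 and Rgs21, had at most 1 read in any library. Rgs16 lies farther along the same chromosome (chr1:153740349-153745468, plus strand). Rgs19 is on chr2:181688419-181693977, Rgs3 on chr4:62559847-62704001, Rgs12 on chr5:34949445-35039644, Rgs10 on chr7:128373621-128418758 and Rgs14 on chr13:55369732-55384687.

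In unstimulated BMDMs, 4 genes made up most of the family's RNA. Levels of different genes are compared per kb of the principal mRNA, since longer mRNAs give more reads. On that scale Rgs10 stood first in vehicle at 107.9 ± 3.71 CPM per kb (SD, n = 2), followed by Rgs2 at 85 ± 2.05, Rgs1 at 83.0 ± 6.09 and Rgs19 at 60.5 ± 0.238. Rgs2 and Rgs1 overlapped, as did the next pair, Rgs14 at 19.9 ± 0.995 and Rgs18 at 19.1 ± 3.38 CPM per kb. Rgs16 at 2.10 ± 0.117 and Rgs12 at 2.00 ± 0.238 overlapped as well, and Rgs3 came last at 0.534 ± 0.183 CPM per kb. Dividing by the union of all annotated exons instead, a scale that counts every annotated transcript form, put Rgs2 first at 70.8 CPM per kb in vehicle.

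The 12 other genes of the name added little. Of these, 5 had 0 reads in every library and 10 had no more than 3 reads in any library. The exceptions, named after their values were seen, were Rgs9 (0.281 to 1.16 CPM) and Rgs11 (2.11 to 5.28 CPM), both of a subfamily that works as a dimer with Gβ5. The 9 genes held 99.5% of the family's summed CPM per kb in vehicle and 97.7% after R848.

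**Figure D1:**
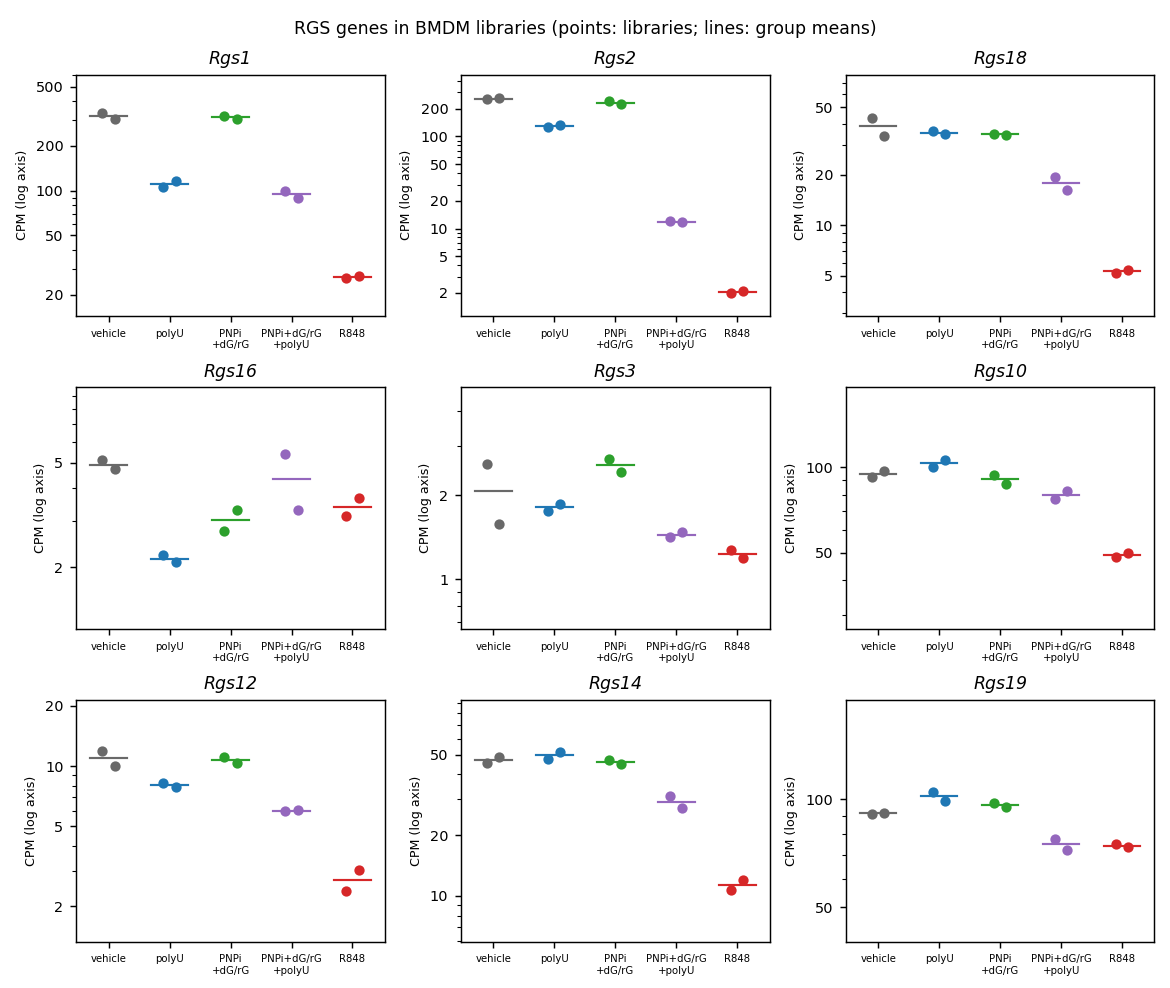
CPM (log axis) of each RGS gene in each of the 10 libraries, by treatment group, with points for libraries and short lines for group means (n = 2). Rgs1, Rgs2, Rgs3, Rgs10, Rgs12, Rgs14 and Rgs18 were lowest in both R848 libraries. Rgs16 was lowest with polyU alone, and for Rgs19 the R848 and combined treatment libraries overlapped as the lowest.

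Rgs2 encodes a small RGS protein that acts chiefly on Gαq. It was at 252.4 and 261.1 CPM in vehicle, 241.4 and 225.0 CPM with PNPi+dG/rG, and 125.4 and 133.3 CPM with polyU. It stood at 11.96 and 11.7 CPM after the combined treatment, and at 2.02 and 2.08 CPM with R848. No group overlapped another, and the 4 lowest libraries were those of the combined treatment and of R848. These values rest on 38 to 9269 reads a library, with the fewest in R848. The log2 difference from vehicle was -0.99 ± 0.06 (limma SE, n = 2 against 2) with polyU, which is 1.99-fold. It was -0.14 ± 0.06 with PNPi+dG/rG, -4.44 ± 0.06 (21.7-fold lower) with both, and -6.97 ± 0.06 (125-fold lower) with R848. It was 10.9-fold lower with PNPi+dG/rG and polyU than with polyU alone, and the difference between that effect and the effect of PNPi+dG/rG without polyU was -3.31 ± 0.09 (log2).

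Rgs1, which lies next to Rgs2 among the expressed genes of the run and encodes a protein known to restrain chemokine-driven migration of B and T cells, was the tested member that polyU alone lowered most. It was at 335.5 and 302.4 CPM in vehicle, 320.2 and 304.6 CPM with PNPi+dG/rG, and 105.7 and 116.4 CPM with polyU. It was at 99.7 and 89.1 CPM after the combined treatment, and at 25.9 and 26.9 CPM with R848. All 6 libraries treated with polyU or R848 were below the 4 others, whose ranges overlapped. Rgs1 fell by 1.52 ± 0.07 (log2) with polyU (adjusted p = 2.309e-10), by 1.76 ± 0.07 with both (2.904e-12) and by 3.59 ± 0.07, 12.1-fold, with R848 (2.936e-16). The further step from polyU to PNPi+dG/rG+polyU was -0.24 ± 0.07 (adjusted p = 0.00682), close to the shift of -0.24 in the median gene. With each library centred on its median gene that step was 0.020 (adjusted p = 0.834), so its direction depends on the scaling.

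Rgs18 encodes a small RGS protein best known from platelets and their precursors. It had 43.5 and 33.8 CPM in vehicle, 36.2 and 34.8 CPM with polyU and 34.9 and 34.2 CPM with PNPi+dG/rG. It had 19.4 and 16.2 CPM after the combined treatment and 5.20 and 5.45 CPM with R848. The first 3 groups overlapped, and both of the last were below them and apart from each other. Rgs18 fell by 1.11 ± 0.11 (log2) with PNPi+dG/rG+polyU against vehicle (adjusted p = 3.446e-07) and by 2.85 ± 0.11, 7.21-fold, with R848 (1.57e-12). Relative to the median gene the fall with PNPi+dG/rG+polyU was 0.90 (adjusted p = 3.982e-06), under the 2-fold limit. It was also under that limit without the first vehicle library (-0.93) and without the second library of the combined treatment (-0.98). The platelet markers examined summed to at most 1.48 CPM in any library.

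**Figure D2:**
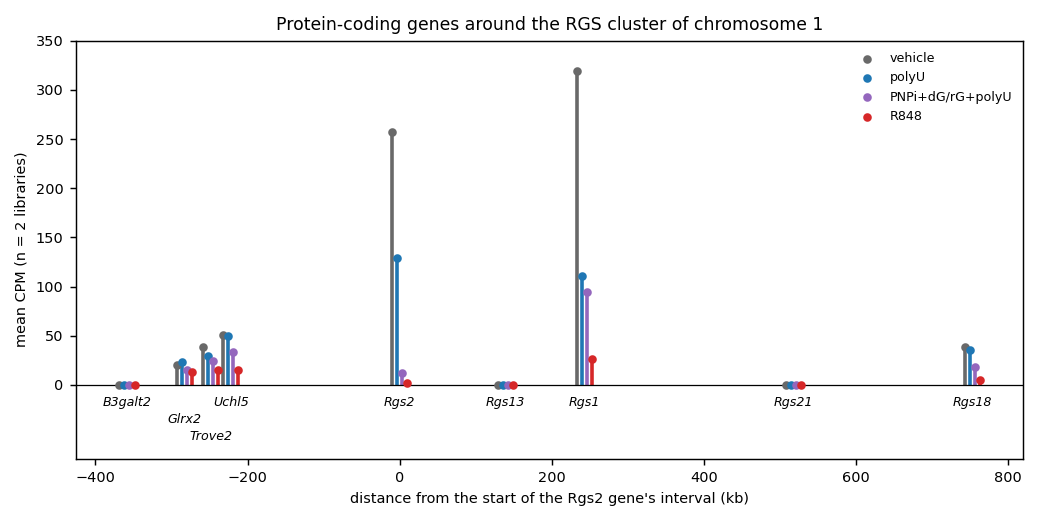
Mean CPM (n = 2 libraries) of the protein-coding genes around the chromosome 1 run, placed by the distance in kb from the start of the Rgs2 interval, for 4 of the groups. Rgs2, Rgs1 and Rgs18 each stood lower after the combined treatment and after R848 than in vehicle, Rgs13 and Rgs21 were at or near 0, and the flanking Uchl5 stood at 50.2, 33.5 and 15.2 CPM in vehicle, PNPi+dG/rG+polyU and R848.

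The neighbours did not follow one another step by step. With polyU alone Rgs1 and Rgs2 stood at a lower level than in vehicle, but Rgs18 differed from vehicle by -0.11 ± 0.11 (log2, adjusted p = 0.469). With PNPi+dG/rG added to polyU, Rgs2 and Rgs18 were lower by 3.45 and 1.00 (log2), while Rgs1 was lower by 0.24. Uchl5 is the nearest expressed gene outside the run, and its interval starts 222 kb from the start of the Rgs2 interval. Uchl5 had a mean of 50.2 CPM in vehicle, 49.5 CPM with polyU, 33.5 CPM after the combined treatment and 15.2 CPM with R848. It is named for its position and after its values were seen.

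Rgs16, also a small RGS protein, went a way of its own. Its low levels, on 36 to 123 reads a library, were 5.11 and 4.72 CPM in vehicle, 2.22 and 2.09 CPM with polyU, and 2.73 and 3.29 CPM with PNPi+dG/rG. After the combined treatment they were 5.38 and 3.31 CPM, and with R848 3.13 and 3.67 CPM. PolyU alone gave the 2 lowest libraries, and the spread of PNPi+dG/rG+polyU reached from above vehicle down into the range of R848. Rgs16 fell by 1.19 ± 0.23 (log2) with polyU (adjusted p = 0.00077). Against polyU it was 0.97 ± 0.23 higher with PNPi+dG/rG+polyU (adjusted p = 0.00193), whereas without polyU PNPi+dG/rG moved it by -0.71 ± 0.23 (0.259). The step from polyU passed 2-fold without the first polyU library (1.01) or without the second library of the combined treatment (1.32), and was 0.62 without the first of these. The difference between these effects was 1.68 ± 0.33 (adjusted p = 0.000591). It was negative as deposited for the 7 other listed genes tested, and for 6 of them relative to the median gene, where Rgs1 was at 0.080. With R848 the value was -0.53 ± 0.23 (adjusted p = 0.0447) and it was 0.061 (0.815) relative to the median gene, so no direction can be given there.

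Rgs3, of which the principal transcript encodes a much longer protein, was the least abundant at 1.19 to 2.71 CPM and 20 to 104 reads a library. It had 2.71 and 2.43 CPM with PNPi+dG/rG. The vehicle libraries, at 2.58 and 1.57 CPM, bracketed both polyU libraries at 1.76 and 1.86 CPM. R848 gave 1.27 and 1.19 CPM and the combined treatment 1.42 and 1.48 CPM, both below vehicle. Only the R848 difference passed the adjusted p, at -0.71 ± 0.29 (log2, adjusted p = 0.0317). Relative to the median gene it was -0.11 (0.725). It was -0.35 without the first vehicle library and -1.07 without the second.

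Rgs12 and Rgs14 are larger proteins that carry Ras-binding and GoLoco motifs beside the RGS domain, the latter holding Gαi in its GDP form. Rgs14 was at 45.2 and 48.5 CPM in vehicle, 47.5 and 51.5 CPM with polyU, and 47.2 and 45.0 CPM with PNPi+dG/rG. It was at 31.3 and 27.1 CPM after the combined treatment and 10.7 and 11.97 CPM with R848. Vehicle overlapped both polyU and PNPi+dG/rG, and the other 2 groups lay below. Rgs14 fell by 0.69 ± 0.09 (log2, adjusted p = 4.163e-06) with PNPi+dG/rG+polyU and by 2.05 ± 0.09, 4.14-fold, with R848 (3.429e-12).

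Rgs12 was at 11.8 and 10.0 CPM in vehicle, 8.24 and 7.85 CPM with polyU, and 11.1 and 10.3 CPM with PNPi+dG/rG. It was at 5.95 and 6.05 CPM after the combined treatment and at 2.39 and 3.03 CPM with R848. Vehicle and PNPi+dG/rG overlapped, and the other 3 groups were each apart. Its fall of 0.44 ± 0.15 (log2) with polyU had an adjusted p of 0.0335, which rose to 0.236 without the first vehicle library. With both it fell by 0.86 ± 0.15 (0.000125) and with R848 by 2.02 ± 0.15, 4.04-fold (4.98e-09).

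Rgs10 and Rgs19 had the highest levels per kb after R848. Rgs10 is a small protein of the same subfamily as Rgs12 and Rgs14, known in microglia and macrophages for limiting inflammatory gene expression. Its 92.6 and 97.3 CPM in vehicle compared with 100.2 and 106.6 CPM with polyU, 94.2 and 87.7 CPM with PNPi+dG/rG, 77.3 and 82.3 CPM with both, and 48.3 and 49.8 CPM with R848. Vehicle overlapped PNPi+dG/rG, polyU lay above them, and the combined treatment and R848 lay below in that order. With polyU Rgs10 was at 0.12 ± 0.06 (log2, adjusted p = 0.114), and with R848 it fell by 0.95 ± 0.06 (log2, 1.94-fold, adjusted p = 3.953e-10), or by 0.36 (5.258e-05) relative to the median gene. With PNPi+dG/rG+polyU it was -0.25 ± 0.06 from vehicle (adjusted p = 0.00144), the size of the shift in the median gene, and -0.04 (0.576) relative to it.

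Rgs19, which binds Gαi and Gαz, was at 91.1 and 91.6 CPM in vehicle, 105.1 and 98.8 CPM with polyU, 97.4 and 95.5 CPM with PNPi+dG/rG, 77.7 and 72.04 CPM with both and 75.1 and 73.4 CPM with R848. The combined treatment and R848 overlapped below the other groups, and both PNPi+dG/rG and polyU lay above vehicle, the latter higher. The differences from vehicle were 0.16 ± 0.05 with polyU (adjusted p = 0.033), -0.29 ± 0.05 with both (0.000236) and -0.30 ± 0.05 with R848 (0.000115). Relative to the median gene they were 0.11 (0.107), -0.08 (0.217) and 0.30 (0.000121), so the direction after R848 turned with the scaling.

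**Figure D3:**
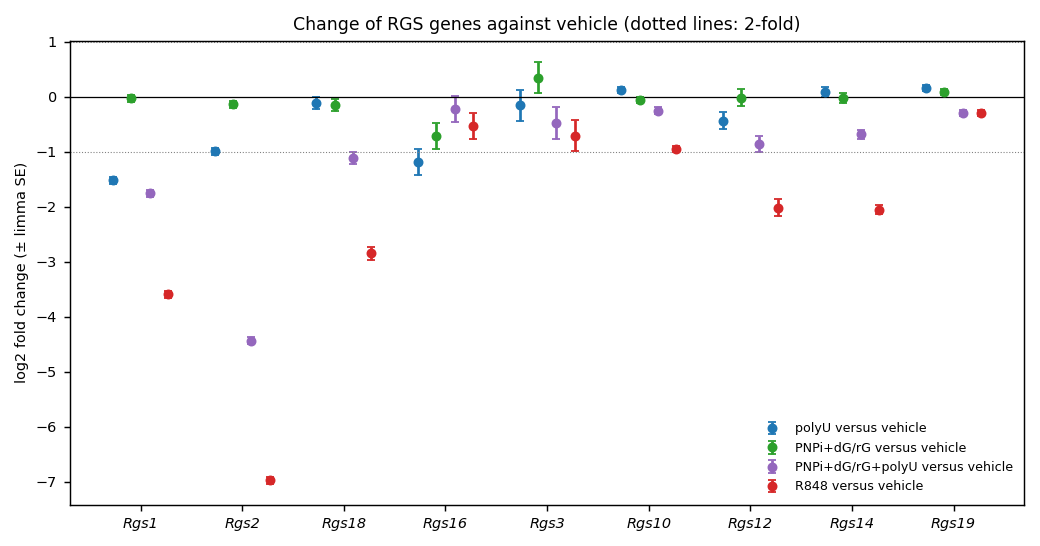
Log2 fold change against vehicle, with its limma standard error, of each RGS gene under each treatment (n = 2 libraries a group; dotted lines mark 2-fold). The R848 values spread from -6.97 for Rgs2 to -0.30 for Rgs19, and the PNPi+dG/rG values stayed between -0.71 and 0.35.

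Rgs2 left out, 8 genes were tested. PolyU gave 2 of 8 called lower (Rgs1 and Rgs16) and 0 higher, where 0.776% of all tested genes were called lower and 3.21% higher. PNPi+dG/rG changed 0 of 8 by limma, against 0.0751% of all genes, and 1 of 8 (Rgs16) had an unadjusted p under 0.05, beside 1076 of the 11978 genes. PNPi+dG/rG+polyU gave 2 of 8 called lower (Rgs1 and Rgs18) and 0 higher, where 14.3% of all genes were lower and 8.12% higher. R848 gave 4 of 8 called lower (those 2 with Rgs12 and Rgs14) and 0 higher, where 30.3% of all genes were lower and 8.89% higher. The median log2 difference of the 8 genes was -0.13 with polyU, -0.03 with PNPi+dG/rG, -0.58 with both and -1.48 with R848, and that of all genes 0.02, 0.02, -0.22 and -0.50. These comparisons share the vehicle libraries, and the macrophage markers Mertk and, with R848, Fcgr1 were lower in the same comparisons, as given above.

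Set directly against R848, the combined treatment left 4 of the 8 tested genes higher and 0 lower, where 16.9% of all tested genes were called higher and 3.86% lower. These were Rgs1 at 1.84 ± 0.07 (log2, adjusted p = 4.307e-12), Rgs18 at 1.73 ± 0.11 (2.328e-09), Rgs14 at 1.37 ± 0.09 (1.666e-09) and Rgs12 at 1.16 ± 0.15 (6.316e-06). Rgs2, not tested, was at 2.53 ± 0.06. Centring on the median gene left 2 of the 4 past 2-fold, Rgs1 and Rgs18, and Rgs12 was at 0.98 without the first R848 library. Doses of the ligands are not comparable, and the fibroblast, neutrophil and T cell marker sums differed between these groups as given above.

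**Figure D4:**
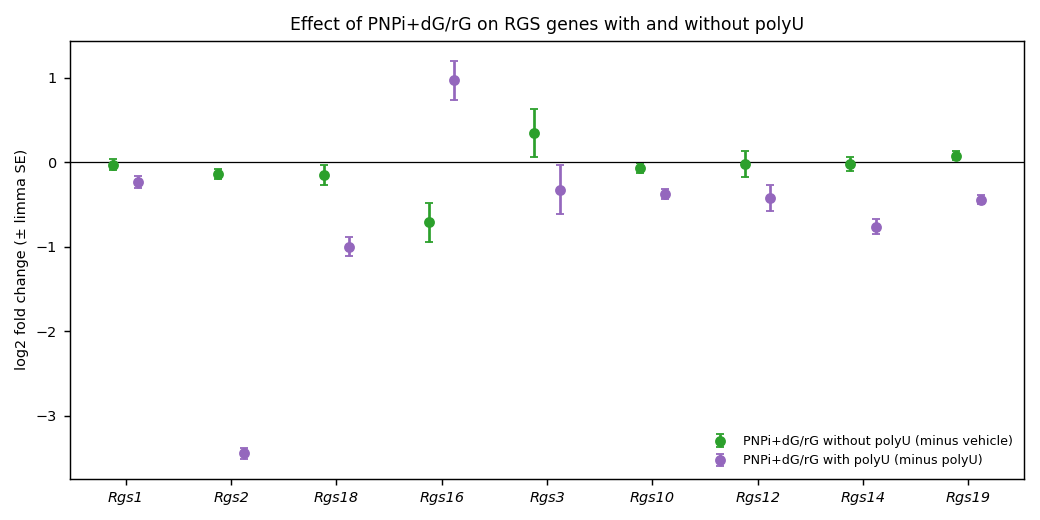
Log2 fold change, with its limma standard error, after adding PNPi+dG/rG in the absence of polyU (minus vehicle) and in its presence (minus polyU), for each RGS gene (n = 2 libraries a group). With polyU present 8 of 9 genes lay below 0, Rgs2 the lowest at -3.45, and Rgs16 lay at 0.97. Centred on the median gene, Rgs1 moves from -0.24 to 0.020.

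Whether PNPi+dG/rG acted differently with and without polyU was asked gene by gene with the interaction term. Against polyU alone, the combined treatment called 1 of the 8 tested genes lower (Rgs18, at 2.002-fold) and 0 higher, where 10.2% of all genes were lower and 5.29% higher. Centred on the median gene, 0 were called lower and Rgs16 was called higher. Rgs18 was under 2-fold without the first polyU library (-0.97) or without the second of the combined treatment (-0.87). The interaction called 0 of 8 lower and 1 (Rgs16) higher, where 8.87% and 4.55% of all genes were called in these directions. Without the 2-fold limit 4 genes had a negative and 1 a positive interaction, where 38.9% and 11.8% of all genes did. Rgs18 had an interaction of -0.85 ± 0.16 (log2, adjusted p = 0.000478) and -1.03 without the first vehicle library. It was -0.74 ± 0.12 (0.00015) for Rgs14, -0.52 ± 0.08 (5.058e-05) for Rgs19 and -0.31 ± 0.08 (0.00611) for Rgs10. The median gene had -0.27. Relative to it, Rgs18 kept -0.56 (0.0107), Rgs14 -0.46 (0.00743) and Rgs19 -0.24 (0.0208), and Rgs10 was at -0.02 (0.852). For Rgs1 the interaction was -0.21 ± 0.10 (adjusted p = 0.0826). Rgs11, outside the list and named after its values were seen, was called lower in the interaction, at -1.11 ± 0.26 (0.00239). It was also called lower against polyU, at -1.20 ± 0.18 (3.819e-05), on 30 to 153 reads a library.

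These changes rearranged the family. The summed level of all RGS genes was 382 ± 3.07 CPM per kb (SD, n = 2) in vehicle and 368.1 ± 13.8 with PNPi+dG/rG. It was 300.9 ± 6.53 with polyU, 194.7 ± 3.64 with both and 125 ± 1.17 with R848, with no overlap between any of these last 3 groups or with the first pair. Rgs1 and Rgs2 together made up 44.0% ± 0.704 of the sum in vehicle, 23.8% ± 0.744 with polyU, 14.6% ± 0.748 after the combined treatment and 6.04% ± 0.111 with R848. Rgs10 and Rgs19 went from 44.1% ± 1.39 to 61.5% ± 0.594, 72.1% ± 2.05 and 83.9% ± 0.518 in the same order. These are shares of 1 sum, so they cannot move independently. The sum includes Rgs2, whose fall was part of the choice of the genes. From polyU to the combined treatment Rgs2 alone went from 14.2% to 2.02%, while Rgs1 alone went from 9.61% to 12.6%. After R848 the order per kb was Rgs10 (55.7 ± 1.15), Rgs19 (49.2 ± 0.818), Rgs1 (6.87 ± 0.194), Rgs14 (4.81 ± 0.390), Rgs18 (2.62 ± 0.0857), Rgs16 (1.46 ± 0.164), Rgs2 (0.679 ± 0.0150), Rgs12 (0.495 ± 0.0829) and Rgs3 (0.318 ± 0.0146), with no neighbours overlapping. Rgs2 had moved from the second place to the seventh. Over the union of exons Rgs19 was ahead of Rgs10 after R848, at 33.3 against 28.7 CPM per kb.

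**Figure D5:**
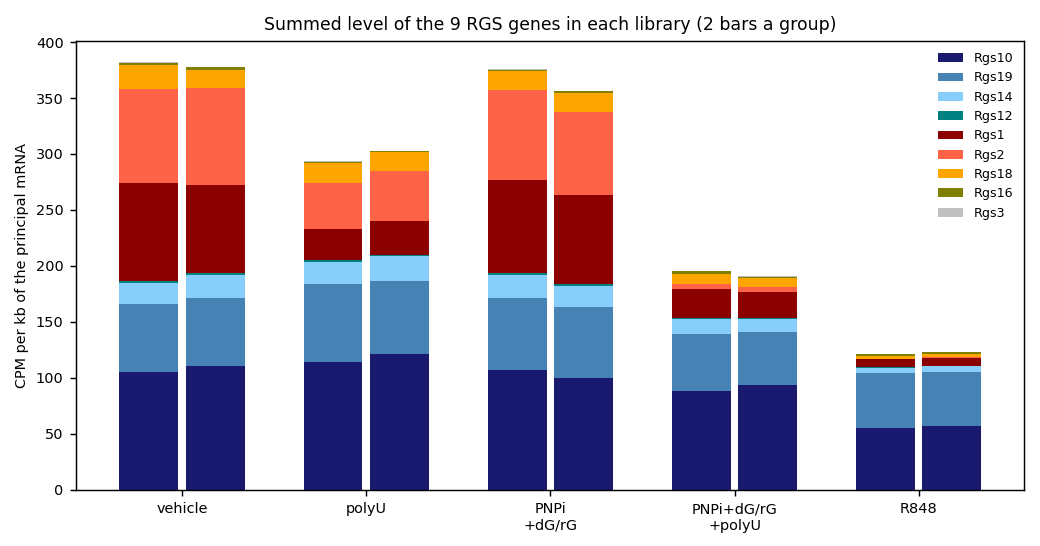
Summed CPM per kb of principal mRNA of the 9 RGS genes in each library (2 bars a group), stacked by gene from an axis starting at 0. The red Rgs1 and Rgs2 segments shrink from 44.0% of the family's sum in vehicle to 6.04% with R848. The blue Rgs10 and Rgs19 segments make up 83.9% there. Rgs2 is included, though its fall was part of the choice of the genes.

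The proteins and transcripts of the 9 genes differ in build. The principal transcripts encode 181 to 235 codons for Rgs1, Rgs2, Rgs10, Rgs16, Rgs18 and Rgs19, 547 for Rgs14, 966 for Rgs3 and 1381 for Rgs12. Their 3′ UTRs hold unequal numbers of ATTTA, the pentamer of AU-rich elements that mark short-lived mRNAs. Rgs1 has 10, Rgs2 and Rgs18 have 5 each and Rgs16 has 4. Rgs3 has 2, Rgs12 and Rgs19 have 1 each, and Rgs10 and Rgs14 have 0. Of the tested genes, 6.05% hold 10 or more and 21.1% hold 5 or more, with a median of 1. The count also follows the length of the 3′ UTR, 3006 nt in Rgs1 and 275 nt in Rgs10, and mRNA stability was not measured.

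Among the 8459 genes averaging 10 CPM or more, the 5 whose log2(CPM + 1) pattern over the 10 libraries was most like that of Rgs2 were Rassf3 (Pearson r = 0.9997), Tlr13 (0.9993), Pla2g15 (0.9992), Mknk2 (0.9991) and Mtss1 (0.9990). Rassf3 averaged 131.6 CPM in vehicle, 88.2 with polyU, 19.8 after the combined treatment and 7.81 with R848, a like order with a narrower range. For Rgs1 the nearest were Rtn4 (r = 0.997), Asph (0.996) and Lpl (0.995). Pearson r does not take in the size of a change. Rtn4 averaged 1293 CPM in vehicle, 1146 with polyU, 1113 after the combined treatment and 950 with R848, a far narrower range than that of Rgs1. For Rgs16 the best were Ddx42 (0.799), Leo1 (0.795) and Senp6 (0.792), a looser likeness. The points share the 5 treatments, so these values describe likeness and carry no test.

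The rest of the G-protein pathway was read from lists of its parts. Proteins with an RGS or RGS-like domain outside the RGS genes, such as GRKs, axins and AKAP10, had 13 tested members, of which 1 was called higher after the combined treatment (8.12% of all genes) and 1 lower after R848 (30.3% of all genes). The former was Grk3, a kinase that desensitizes active receptors, at 13.9 CPM in both vehicle libraries, 49.5 to 49.7 CPM with PNPi+dG/rG+polyU (1.84 ± 0.08 log2, adjusted p = 1.818e-11) and 19.3 to 21.3 CPM with R848. The latter was Akap10, an anchor of protein kinase A, from 106.8 to 108.6 CPM in vehicle to 39.4 to 41.4 CPM with R848 (-1.41 ± 0.05, 4.909e-13).

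Of the Gα subunits, the direct substrates of RGS proteins, 8 were tested. PolyU had 0 of them called, where 0.776% of all genes were lower and 3.21% higher. The combined treatment also had 0 called, where 14.3% were lower and 8.12% higher. Without the 2-fold limit, 2 passed as lower and 1 as higher with polyU. With the combined treatment 7 passed as lower, Gna12 the most at -0.92 ± 0.05 (log2, adjusted p = 1.144e-10), and 0 as higher. By unadjusted p-values under 0.05 in limma, 5 of 8 passed with polyU beside 5612 of the 11978 genes. With both it was 7 of 8 beside 8553. With the 2-fold limit, 2 of 8 were lower with R848, near the 30.3% of all genes. These were Gna15, a Gq-class subunit, which fell by 1.61 ± 0.09 (log2, adjusted p = 1.79e-10), and Gna12, which fell by 1.09 ± 0.05 (6.778e-12). Of 10 tested Gβ and Gγ genes, 5 were lower with R848 (Gng11, Gng2, Gngt2, Gnb4 and Gng7) and 2 higher (Gng4 and Gng12), where 30.3% of all genes were lower and 8.89% higher, the last 4 of these 7 named after their values were seen. Gng11 fell most, by 2.79 ± 0.17 (adjusted p = 3.329e-10), from 7.29 to 8.99 CPM in vehicle to 1.07 to 1.27 CPM.

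Of 16 tested effectors of G proteins, 6 were lower and 2 higher with PNPi+dG/rG+polyU, where 14.3% of all genes were lower and 8.12% higher. With R848 7 were lower and 4 higher, where 30.3% and 8.89% of all genes were. With polyU alone 0 were called, where 0.776% of all genes were lower and 3.21% higher. Beside the genes given below, those higher were Pik3r5 in both comparisons and Prkar2b and Adcy6 with R848 (named after their values were seen). Adcy6 was at or near 0 in vehicle and highest with R848, where its change was 9.08 ± 3.38 (log2, adjusted p = 0.0263). Its call is in the count of 4 but is not used as a result. Plcb2, the phospholipase C of the Gαq and Gβγ branch in blood cells, was at 158.8 to 159.3 CPM in vehicle, 140.3 to 152.8 CPM with polyU, 39.0 to 45.3 CPM with both and 10.6 to 11.7 CPM with R848. Its change was -1.92 ± 0.07 (log2, adjusted p = 1.568e-12) with both and -3.83 ± 0.07 (1.95e-16) with R848. Pik3r6, an adaptor of the Gβγ-driven PI3K γ, rose from 9.59 to 10.6 CPM in vehicle to 62.7 to 64.9 CPM with both (2.66 ± 0.09, 4.451e-13) and 84.5 to 85.6 CPM with R848 (3.08 ± 0.09, 3.43e-14). Adcy3, an adenylyl cyclase, fell by 1.02 ± 0.17 with both (5.329e-05) and by 2.15 ± 0.17 with R848 (6.231e-09).

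Of the 2 β-arrestins, which uncouple receptors from G proteins, Arrb1 was lower with both (-1.50 ± 0.05 log2, adjusted p = 5.198e-13) and with R848 (-1.67 ± 0.05, 6.509e-14). The other was not called, where 14.3% of all genes were lower with both and 30.3% with R848. Of 7 tested exchange factors and GoLoco proteins for Gα, 0 were called with PNPi+dG/rG+polyU against vehicle, where 14.3% of all genes were lower and 8.12% higher. With R848 2 were lower, near the 30.3% of all genes. These were Rap1gap, named after its values were seen, and Gpsm2, a GoLoco protein, which went from 28.3 to 29.8 CPM in vehicle to 6.27 to 6.89 CPM with R848 (-2.14 ± 0.09, 1.643e-12).

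Transcripts that respond to cAMP, of which 9 were tested, were called in both directions. With polyU alone 1 was higher (Pde4b) and 2 lower (Nr4a1 and Fosb), where 3.21% of all genes were higher and 0.776% lower. With PNPi+dG/rG+polyU 3 were higher (Pde4b, Nr4a2 and Nr4a3) and 3 lower (Per1, Sik1 and Fosb), where 8.12% and 14.3% of all genes were. With R848 3 were higher (Pde4b, Nr4a1 and Nr4a3) and 3 lower (Sik1, Fosb and Pde4d), where 8.89% and 30.3% were. Nr4a2, Nr4a3, Sik1, Fosb and Pde4d are named after their values were seen. Pde4b, the cAMP phosphodiesterase of myeloid cells, rose from 5.33 to 6.74 CPM in vehicle to 22.6 to 24.1 CPM with polyU, 228.9 to 238.4 CPM with both and 484.4 to 496.5 CPM with R848, where the change was 6.35 ± 0.21 (log2, adjusted p = 1.495e-07). Nr4a1, an orphan nuclear receptor, rose by 2.43 ± 0.14 with R848 (1.889e-10) but fell by 1.18 ± 0.14 with polyU (8.879e-06) and by 0.79 ± 0.14 with both (0.000137). Per1, a clock gene with CRE sites, fell by 1.74 ± 0.07 with both (4.339e-12) and stood at -0.02 ± 0.07 with R848 (0.769).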

How the data were processed

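RNA of 10 BMDM libraries was measured by stranded mRNA sequencing in single reads of 50 bp. According to the methods and the submitters' processing notes, the authors mapped reads with STAR 2.27a to GRCm38 (demultiplexing by bcl2fastq 2.19.1.403), counted them on Ensembl release 97 genes and deposited CPM with an offset of 0.0001 on every value. How reads on overlapping genes were counted is not given in the sources used here. Antisense or overlapping genes of Rgs3, Rgs10, Rgs12 and Rgs16 had at most 1.01 CPM. The 9 genes, the other lists and the tests were chosen with earlier results of these data known.

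Groups were taken from the sample labels. The 11978 of 55573 genes reaching 1 CPM in 2 or more libraries were fitted with limma 3.58.1 in R 4.3.3 (statmod 1.5.0) on log2 of the deposited values, all 5 groups together, with a trend and robust eBayes, with Benjamini-Hochberg adjustment over all genes of a comparison. Counts of called RGS genes leave out Rgs2. The interaction term subtracts the effect that PNPi+dG/rG had without polyU from its effect in the presence of polyU. With 2 libraries against 2, a permutation test could not reach significance. Subtracting the offset, low values were whole multiples (within 0.1 of a read) of 1 read, which gave the depth; a limit of 3 reads covers counting error only. The 2 libraries of a group differed beyond counting noise in each group, so none was a repeat deposit.

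Symbols (55394 of 55573 identifiers) and positions came from GENCODE M21 and promoter windows from RefSeq. Python 3.11.15 with numpy 2.4.6 and pandas 2.3.3 was used. From the other lists, up to 3 genes each with the largest change among those called with PNPi+dG/rG+polyU or R848 and a mean of at least 5 CPM were named, and genes named outside this rule are marked where they stand. Alternatives were pseudocounts of 0.1 and 1 CPM, no filter, a filter on the mean, centring on the median gene, plain eBayes, a fit restricted to the groups compared, a replicate block, and omission of each library in turn. The tests were tried on simulated data first.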

Additional observations from a re-analysis of the deposited data

Results flagged for a closer look

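The effect of PNPi+dG/rG differed with and without polyU, by the interaction term in limma, for 5 of the listed RGS genes other than Rgs2. Rgs11, outside the list, is given above. The interaction was 1.68 (log2) for Rgs16, -0.85 for Rgs18, -0.74 for Rgs14, -0.52 for Rgs19 and -0.31 for Rgs10, all at adjusted p-values under 0.05, where 38.9% of all tested genes passed in the negative and 11.8% in the positive direction. Relative to the median gene the values were 1.97, -0.56, -0.46, -0.24 and -0.02, of which that of Rgs10 no longer passed (adjusted p = 0.852). The interaction of Rgs16 rests on 5.38 and 3.31 CPM in the 2 libraries of the combined treatment, and it was between 1.33 and 2.03 when any 1 library was left out. No explanation was tested.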

How the results depend on the processing

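Of the 7 counts of called RGS genes, which leave out Rgs2, 118 of 126 recomputed values stayed within 1.5 times the original. Each count adds both directions and does not track which gene was called. Centred on the median gene, the 1 call against polyU was Rgs16 higher in place of Rgs18 lower, which counted as unchanged. With a pseudocount of 1 CPM, polyU lowered 1 gene in place of 2, and with 0.1 or 1 CPM, PNPi+dG/rG+polyU called 0 in place of 1 against polyU. Centring left 1 gene in place of 2 called with PNPi+dG/rG+polyU and 2 of the 4 genes higher than with R848. Leaving out 1 library gave 2 called genes for polyU, 0 for PNPi+dG/rG, 1 to 2 for PNPi+dG/rG+polyU (1 without the first vehicle library or the second of the combined treatment), 4 to 5 for R848, 1 against polyU, 3 to 4 against R848 and 1 to 2 for the interaction (2 without the first vehicle library). Centring turned the direction of Rgs16 with R848 (0.061) and of Rgs19 with R848 (0.30), and of Rgs1 between PNPi+dG/rG+polyU and polyU (0.020); the centring itself removes the shift of the median gene. Of the values of single tested genes, 619 kept their side of the threshold, 44 lost significance and 3 reversed. The losses were among Rgs3 and Rgs16 with R848, Rgs12 and Rgs19 with polyU, Rgs1, Rgs10 and Rgs12 against polyU, Rgs10 and Rgs19 with PNPi+dG/rG+polyU, and Rgs10 in the interaction.

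Replicate numbers showed no clear pairing of the libraries, though the values below cannot exclude a shared mouse or preparation. Deviations of same-numbered libraries correlated at a median of -0.023 (-0.286 to 0.109) over 10 pairs of groups, and in the fit with a replicate block the counts stayed at 2, 0, 2, 4, 1, 4 and 1. A count test on recovered reads, planned as an alternative, was not run. With 2 libraries a group and 20 reads at the lowest for Rgs3, small changes of Rgs3 and Rgs16 were not detectable at this depth. A library left alone in its group was assumed to vary like the others.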
